A study of Mus musculus with 8 samples.

Results

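The 10 genes described here encode testis histones, transition proteins and proteins named as protamines, most of which package germ cell DNA in the mouse testis, and all 10 were found by symbol among the 23983 genes of the table. They comprise 5 testis histones (Hist1h1t, Hist1h2ba, Hist1h2aa, H1fnt and Hils1), 2 transition proteins (Tnp1 and Tnp2) and 3 genes named as protamines (Prm1, Prm2 and Prm3). RNA was sequenced from whole testis of wild-type C57BL/6J mice at day (d) 12, d16 and d24 after birth and in the adult, with 1 library per stage. No agent or transgene was applied to these testes. The study used the stages to follow the first wave of spermatogenesis, in which successive germ cell types appear together after birth. H3K27Ac ChIP-seq of the same 4 stages was not analysed here.

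In spermatogonia and somatic cells DNA is wound on core histones H2A, H2B, H3 and H4 and held between nucleosomes by linker histone H1. Spermatocytes in meiosis make testis versions of these proteins. After meiosis, round spermatids elongate, most histones are removed, the transition proteins take their place, and the arginine-rich protamines finally compact the DNA of the sperm head. The messenger RNAs of the transition proteins and protamines are made in round spermatids and stored before they are translated, so an RNA level is not a protein level.

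Values are FPKM, the mapped fragments scaled to library size and to transcript length. Intervals in parentheses are exact 95% intervals from the number of fragments behind a value, which was recovered from the deposited FPKM. They cover counting error only. With 1 library per stage there is no spread between animals, no test was possible and no p-value is given. In whole testis, fewer cells of a type and less RNA per cell cannot be told apart. The d12 library was the shallowest, with 9299915 fragments on genes, and the d24 library the deepest, with 24901846. On the deposited scale of each library, which does not follow these totals, a count of 0 for a transcript of 1 kb allows up to 0.240 FPKM at d12 and d16, 0.137 at d24 and 0.337 in the adult (3 fragments). The summed FPKM of all genes itself grew from 283580 at d12 to 659202 in the adult. The libraries carried the cell types of their stage: the 6 markers of Sertoli cells summed to 180.6 FPKM at d12 and 63.0 in the adult, those of pachytene spermatocytes to 48.8 and 4808, those of round spermatids to 5.92 and 1265, and those of elongating spermatids to 1.71 and 3622.

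The genes lie on 5 chromosomes (RefSeq annotation of GRCm38.p6, the build to which the reads were mapped). On chromosome 13, Hist1h1t spans chr13:23695811-23696545 on the plus strand. Hist1h2ba (chr13:23933725-23934156, minus strand) and Hist1h2aa (chr13:23934437-23934913, plus strand) form a divergent pair whose 5′ ends are 280 bp apart. H1fnt is at chr15:98255982-98257307 on the minus strand. Hils1 is at chr11:94967593-94968456 on the plus strand and lies opposite Sgca, a muscle sarcoglycan gene with 0, 0.921, 4.58 and 3.94 FPKM from d12 to adult. Tnp1 is at chr1:73015074-73015899 on the minus strand. The remaining genes form a cluster of 8889 bp on the minus strand of chromosome 16: Tnp2 (chr16:10787935-10788655), Prm3 (chr16:10790508-10790914), Prm2 (chr16:10791377-10792105) and Prm1 (chr16:10796332-10796823). Tnp1, Tnp2, Prm1 and Prm2 have 2 exons each and the other 6 genes have 1. RefSeq now calls Hist1h1t H1f6, Hist1h2ba H2bc1, Hist1h2aa H2ac1 and H1fnt H1f7.

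The stretches before the transcript starts are shown for the pairs of genes that share one and for both main protamines, because neighbouring genes here had either like or unlike profiles. The stretch between Hist1h2ba and Hist1h2aa (chr13:23934157-23934436, plus strand, so reading towards Hist1h2aa) holds a TATAAA facing each gene, 4 CCAAT, 1 ATTTGCAT (the octamer of histone H2B promoters) and 1 TGACG (a partial cAMP response element), which the capitals mark. The stretch between 1700027A15Rik, a long noncoding RNA, and Tnp1 (chr1:73015900-73016035, minus strand, so reading towards Tnp1) is only 136 bp long. The 250 bp before Prm1 (chr16:10796824-10797073, minus strand) and Prm2 (chr16:10792106-10792355, minus strand) read towards their genes, and the capitals in Prm2 mark a TATAAA that lies on the opposite strand.
Hist1h2ba to Hist1h2aa: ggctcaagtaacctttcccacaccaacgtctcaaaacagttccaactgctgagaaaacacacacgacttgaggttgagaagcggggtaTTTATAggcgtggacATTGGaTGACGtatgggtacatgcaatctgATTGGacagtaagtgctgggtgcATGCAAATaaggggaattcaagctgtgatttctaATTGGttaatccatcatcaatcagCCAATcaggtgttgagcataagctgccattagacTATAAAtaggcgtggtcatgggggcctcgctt
1700027A15Rik to Tnp1: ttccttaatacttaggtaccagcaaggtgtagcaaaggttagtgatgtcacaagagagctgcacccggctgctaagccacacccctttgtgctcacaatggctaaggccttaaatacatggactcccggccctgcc
Prm1: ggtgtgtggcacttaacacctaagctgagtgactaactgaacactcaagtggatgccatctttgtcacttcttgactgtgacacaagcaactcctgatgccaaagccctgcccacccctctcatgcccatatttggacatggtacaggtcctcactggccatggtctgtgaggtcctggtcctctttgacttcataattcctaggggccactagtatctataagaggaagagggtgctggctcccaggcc
Prm2: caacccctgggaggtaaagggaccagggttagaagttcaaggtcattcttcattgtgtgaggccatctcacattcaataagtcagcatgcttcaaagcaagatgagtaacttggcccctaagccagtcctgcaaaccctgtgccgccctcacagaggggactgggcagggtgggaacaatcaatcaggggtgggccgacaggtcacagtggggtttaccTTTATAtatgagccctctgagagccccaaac

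Searched on both strands of the 250 bp before each start, the full cAMP response element TGACGTCA was in 0 of the 10 windows and in 1.55% of 32817 RefSeq windows. TGACG, which is part of that element, was in 3 of 10 (17.7% of all windows), TATAAA in 3 (12.4%), CCAAT in 5 (33.8%) and ATTTGCAT in 2 (1.60%). The windows of Hist1h2ba and Hist1h2aa overlap, so they count the same bases in both. H1fnt held the third TGACG. Tnp1, Tnp2 and Prm1 held none of these letters. Only exact matches were counted, so a form of a motif that differs by a base was missed. Such matches describe the sequence and do not show binding.

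**Figure D1:**
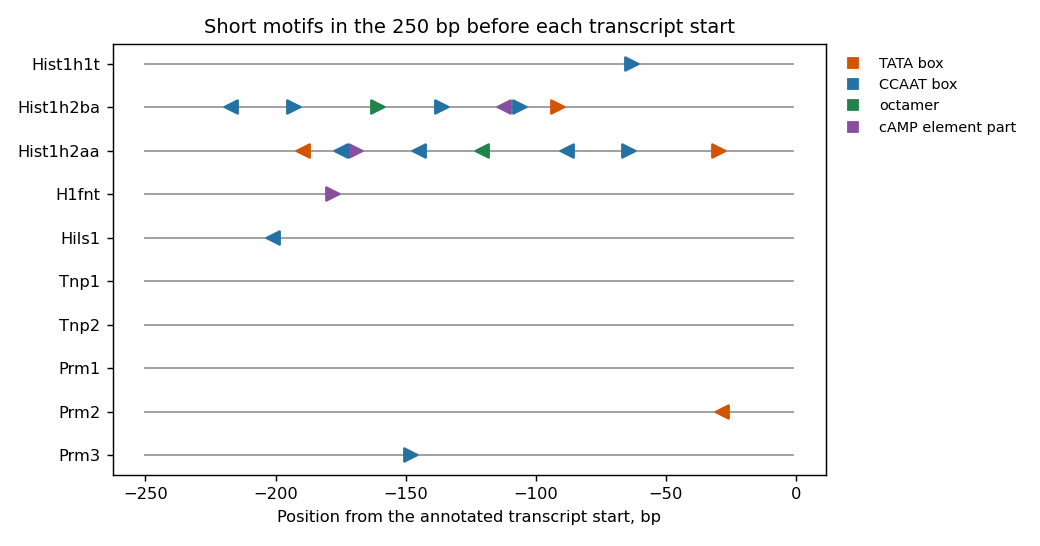
Exact matches of 4 short motifs (TATA box, CCAAT box, octamer and part of the cAMP response element) in the 250 bp before each annotated transcript start, with the position in bp on the horizontal axis and 1 line per gene. Triangles point right where the motif lies on the strand of the gene and left where it lies on the other; the overlapping windows of Hist1h2ba and Hist1h2aa hold most of the matches, while Tnp1, Tnp2 and Prm1 have none.

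The 3 histones of meiotic cells were already transcribed at d12. Hist1h1t encodes H1t, the linker histone of pachytene spermatocytes. The d12 library held 45.6 FPKM of it (41.3 to 50.2), the d16 library 398.3, the d24 library 598.6 and the adult library 560.6. Among these 3 it alone was far below its later level at d12: the d16 value was 8.73-fold higher than the d12 value (7.90 to 9.69), and d12 held 7.62% of the highest value. The difference between d24 and adult was small, 0.936 of the d24 level in the adult (0.901 to 0.973).

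Hist1h2ba encodes TH2B, a testis H2B made from early meiosis onward. From d12 to adult its levels were 318.3, 779.8, 514.6 and 414.6 FPKM, so it was highest at d16. The d16 level was 2.45-fold the d12 level (2.32 to 2.59), and the adult level was 0.806 of that at d24 (0.761 to 0.853). Its partner Hist1h2aa, encoding TH2A, had levels of 1910, 2249, 998.6 and 987.0 FPKM in the same order. It was the fifth highest of all genes at d12 and the third at d16 in FPKM. Its d24 level was 0.444 of that at d16 (0.433 to 0.456), while d24 and adult differed by less than the counting error, with an adult over d24 ratio of 0.988 (0.953 to 1.02).

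The pair with a shared upstream stretch therefore did not keep a fixed ratio. Within a library, where scaling between libraries plays no part, Hist1h2aa over Hist1h2ba was 6.00 (5.70 to 6.31), 2.88 (2.79 to 2.99), 1.94 (1.88 to 2.01) and 2.38 (2.25 to 2.52) from d12 to adult. None of these intervals overlap. Of the 50-bp stretches of the Hist1h2ba transcript, 33.9% occur exactly in another transcript, most often that of Hist1h2bj, against 1.87% for Hist1h2aa and 0 for the other 8 genes, so the mapping can move fragments to or from Hist1h2ba. An annotated noncoding RNA, Gm33516, also overlaps both genes on the strand of Hist1h2aa. Hist1h2aa had a d24 over d16 ratio below 1 under all 4 scalings tried (0.282 to 0.991). The direction of this ratio depended on the scaling for Hist1h1t and, with Gapdh alone, for Hist1h2ba. For Hist1h2ba it was 0.660 as deposited, 0.430 with equal FPKM sums and 0.541 with equal upper quartiles. It was 0.420 with equal sums without the 100 highest genes and 1.47 with Gapdh as the reference. Gapdh itself had 42.6 FPKM at d16 and 19.1 at d24 on the deposited scale. Dividing by it therefore raises the d24 over d16 ratio of every gene. For Hist1h2aa the ratio was 0.991 with Gapdh and 0.289 with equal sums, and for Hist1h1t 3.35 and 0.979.

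H1fnt and Hils1, though testis histones by name, were close to 0 until d24. H1fnt encodes the spermatid linker histone H1T2, which sits at one pole of the spermatid nucleus. The d12 library held 3 fragments of it (0.181 FPKM) and the d16 library 2 (0.121 FPKM). Its level was 126.3 FPKM in the d24 library (122.2 to 130.4) and 767.4 in the adult (751.7 to 783.4). Hils1 encodes a linker histone-like protein of spermatids. The d12 library held 1 fragment of it (0.1003 FPKM) and the d16 library none, which allows up to 0.278 FPKM. Its level was 53.2 FPKM in the d24 library (50.02 to 56.6) and 161.2 in the adult (152.3 to 170.4). Both were thus high in the libraries of d24 and adult alone. Hils1 was at least 191-fold higher at d24 than at d16, taking the 3-fragment limit as its d16 level. For H1fnt this ratio was 1046, with a counting interval of 288.9 to 8628.

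The linker histones can be set against each other as shares of their summed FPKM over 11 genes. The 3 testis members made up 2.77%, 25.2%, 61.7% and 80.2% of it from d12 to adult. Hist1h1t alone accounted for 2.75%, 25.2%, 47.5% and 30.2%. H1fnt accounted for 10.0% at d24 and 41.3% in the adult, and Hils1 for 4.22% and 8.68%. The leading linker histone RNA was thus Hist1h1a at d12 and d16, Hist1h1t at d24 and H1fnt in the adult. H1fnt over Hist1h1t went from 0.211 at d24 (0.203 to 0.219) to 1.37 in the adult (1.32 to 1.42), and H1fnt over Hils1 from 2.37 (2.21 to 2.54) to 4.76 (4.49 to 5.06). Hist1h1a, a replication-linked H1, made up 55.8% at d12 and 10.0% in the adult, and Hist1h1c, another somatic H1, 31.4% and 7.25%.

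**Figure D2:**
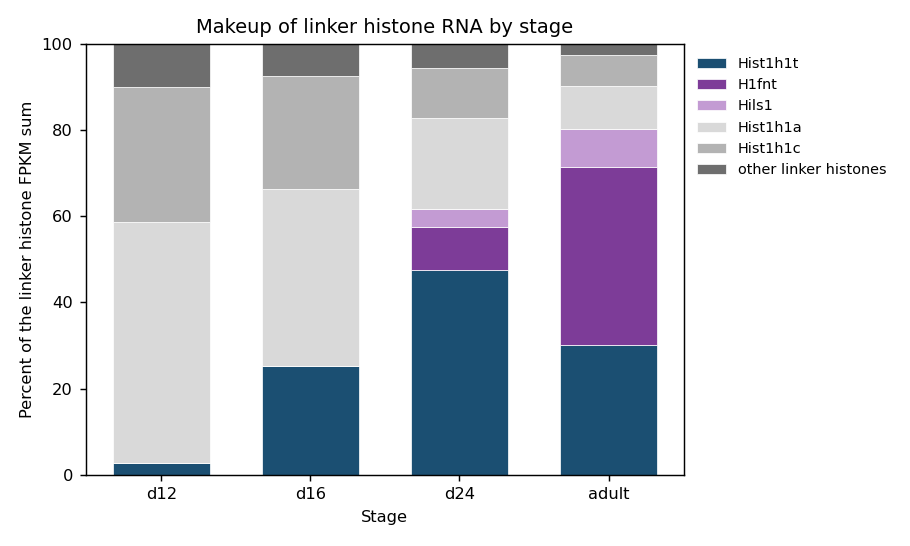
Stacked bars of the percent of summed linker histone FPKM (vertical axis, 0 to 100) taken by each gene in the 4 libraries, 1 per stage. The coloured parts are the testis members Hist1h1t, H1fnt and Hils1, which together took 2.77% at d12 and 80.2% in the adult; grey parts are the other linker histones.

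Transition protein RNA was near 0 at d12 and d16 and abundant at d24. Tnp1 stood at 2.81 FPKM in the d12 library (1.57 to 4.63) and 0.563 in the d16 library (0.116 to 1.65), against 460.5 in the d24 library (446.9 to 474.5) and 4147 in the adult (4083 to 4212). Tnp2 stood at 1.74 FPKM in the d12 library (0.901 to 3.05) and 0.145 in the d16 library (0.00369 to 0.812), against 562.5 (549.2 to 576.0) and 3997 (3941 to 4053). In the adult they were the fourth and the fifth highest genes in FPKM. From d16 to d24 the ratio was 817.4 for Tnp1 on 3 fragments at d16 (279.7 to 3968) and 3867 for Tnp2 on 1 fragment (692.6 to 152499). The position of Tnp2 as the second highest of 12566 ratios at this step rests on that single fragment. From d24 to adult Tnp1 was 9.01-fold higher (8.71 to 9.32) and Tnp2 7.11-fold higher (6.91 to 7.31). Their order turned over: Tnp2 over Tnp1 was 1.22 at d24 (1.18 to 1.27) and 0.964 in the adult (0.944 to 0.984).

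Prm1 encodes the arginine-rich protamine 1 and Prm2 the precursor of protamine 2, which is cut to its mature form on sperm DNA. Prm1 stood at 3.39 FPKM in the d12 library (1.98 to 5.44) and 1.20 in the d16 library (0.441 to 2.62), against 517.4 in the d24 library (502.4 to 532.6) and 6208 in the adult (6126 to 6290). Prm2 stood at 4.57 FPKM in the d12 library (3.23 to 6.39) and 2.35 in the d16 library (1.37 to 3.65), against 624.3 (611.1 to 637.7) and 10910 (10824 to 10997). In the adult Prm2 was the highest of all genes in FPKM and Prm1 the third. From d16 to d24 the ratio was 431.2 for Prm1 (197.6 to 1173) and 265.3 for Prm2 (170.8 to 455.9). The further difference between d24 and adult, 11.998-fold for Prm1 (11.6 to 12.4) and 17.5-fold for Prm2 (17.1 to 17.9), placed them 31 and 15 of 12401 genes in order of that ratio.

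The protamines did not keep a fixed ratio either. Prm2 over Prm1 was 1.21 at d24 (1.16 to 1.25) and 1.76 in the adult (1.73 to 1.78). At d12 and d16 it was 1.35 (0.743 to 2.58) and 1.96 (0.731 to 5.92), intervals too wide to place it. Prm3, between Tnp2 and Prm2 in the cluster, encodes an acidic protein of the spermatid cytoplasm and is not a DNA-packaging protamine. It stood at 1.18 FPKM in the d12 library (0.433 to 2.57) and 0.197 in the d16 library (0.00499 to 1.097), against 154.4 (146.4 to 162.8) and 946.5 (915.1 to 978.7). Relative to Prm1 it was lower in the adult, with Prm3 over Prm1 at 0.298 at d24 (0.281 to 0.317) and 0.152 in the adult (0.147 to 0.158).

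**Figure D3:**
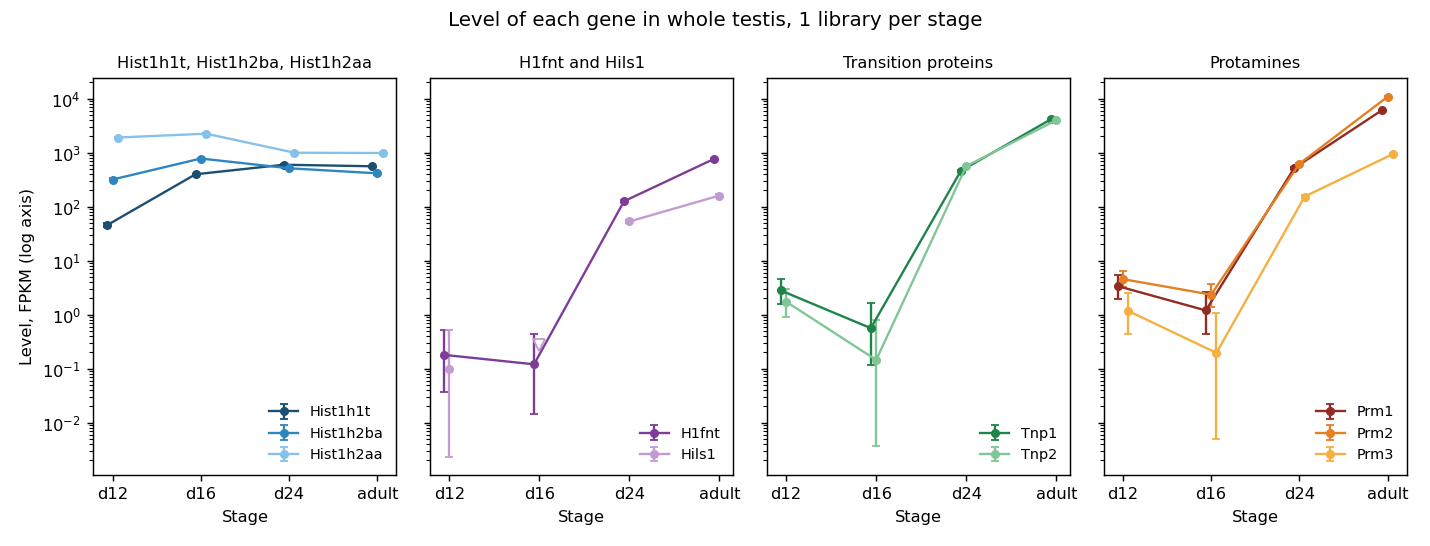
FPKM of each gene (vertical log axis) in the 4 libraries, 1 per stage, with bars for the 95% counting interval; the open triangle at d16 marks the 3-fragment limit of 0.278 FPKM for Hils1, which had no fragment. Hist1h1t, Hist1h2ba and Hist1h2aa lie between 45.6 and 2249 FPKM throughout, whereas the other 7 genes lie below 5 FPKM at d12 and d16 and between 53.2 and 624.3 FPKM at d24.

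The d24 level as a percent of the adult level puts the genes in an order that no common scaling of a library can change. Hist1h2ba stood at 124.1% (117.3 to 131.4), Hist1h1t at 106.8% (102.8 to 110.9) and Hist1h2aa at 101.2% (97.6 to 104.9). Then came Hils1 at 33.0% (30.4 to 35.9), H1fnt at 16.5% (15.8 to 17.1) and Prm3 at 16.3% (15.3 to 17.4). The last places were taken by Tnp2 at 14.1% (13.7 to 14.5), Tnp1 at 11.1% (10.7 to 11.5), Prm1 at 8.33% (8.07 to 8.60) and Prm2 at 5.72% (5.59 to 5.85). Neighbours in this order had separate counting intervals except H1fnt and Prm3, and Hist1h1t and Hist1h2aa. By class the median was 101.2% for the testis histones, 12.6% for the transition proteins and 8.33% for the protamines, so the classes followed the order histones, transition proteins, protamines. The genes within them did not all do so, since H1fnt lay beside Prm3 and Prm3 lay above both transition proteins. Because the order rests on 1 library at d24 and 1 in the adult, differences of a few percentage points may be smaller than the unmeasured spread between animals.

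Markers of the cell types give a scale for these shares. The 6 markers of round spermatids had a median of 43.2% of the adult level at d24 (33.7% to 78.8%), and the 6 markers of elongating spermatids a median of 17.5% (10.7% to 23.4%). Hils1, at 33.0%, lay just below the range of the round spermatid markers. Its counting interval overlapped that of the lowest of them, Tssk1 at 33.7% (32.1 to 35.4). H1fnt, Prm3, Tnp2 and Tnp1 lay within the range of the elongating spermatid markers, and Prm1 and Prm2 lay below it. The part of cell number in these shares was not tested.

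**Figure D4:**
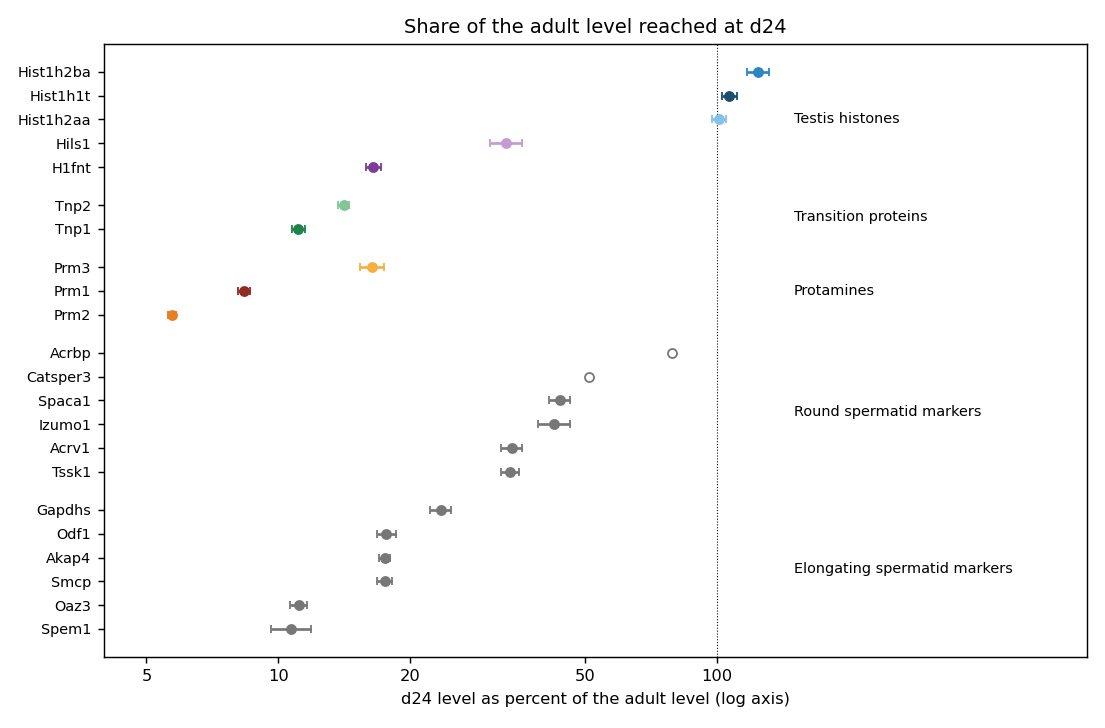
The d24 FPKM of each gene as percent of its adult FPKM (horizontal log axis), with bars for the 95% counting interval, for the 10 genes in colour and for 6 round and 6 elongating spermatid markers in grey; open circles are markers for which fragments could not be recovered, and the dotted line is at 100%. Hist1h1t, Hist1h2ba and Hist1h2aa lie at 101.2% to 124.1%, Hils1 at 33.0%, and the other 6 genes at 5.72% to 16.5%, with Prm2 lowest.

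Counted by step, a gene was called higher or lower where the FPKM, with 0.1 added, differed at least 2-fold and at least 1 of both libraries had 2 FPKM. From d12 to d16, 6 of the 10 genes could be counted: 2 were called higher, Hist1h1t and Hist1h2ba, beside 11.4% of all genes, and 2 lower, Tnp1 and Prm1, beside 3.00%. From d16 to d24 all 10 were counted: the 7 spermatid genes were higher, beside 28.5% of all genes, and Hist1h2aa was lower, beside 8.12%. With libraries divided by Gapdh, 8 were higher at this step and Hist1h2aa was not lower. Under that scaling the median log2 ratio of all genes counted was 1.32, so the median gene passed the 2-fold limit too. From d24 to adult the same 7 genes were higher, beside 13.3% of all genes, and none was lower, beside 1.27%. On the deposited scale the median log2 ratio over all genes counted was -0.03, 0.17 and 0.01 at the 3 steps. Among 12566 genes in order of the d24 over d16 ratio, the 7 spermatid genes held places 2 to 135.

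**Figure D5:**
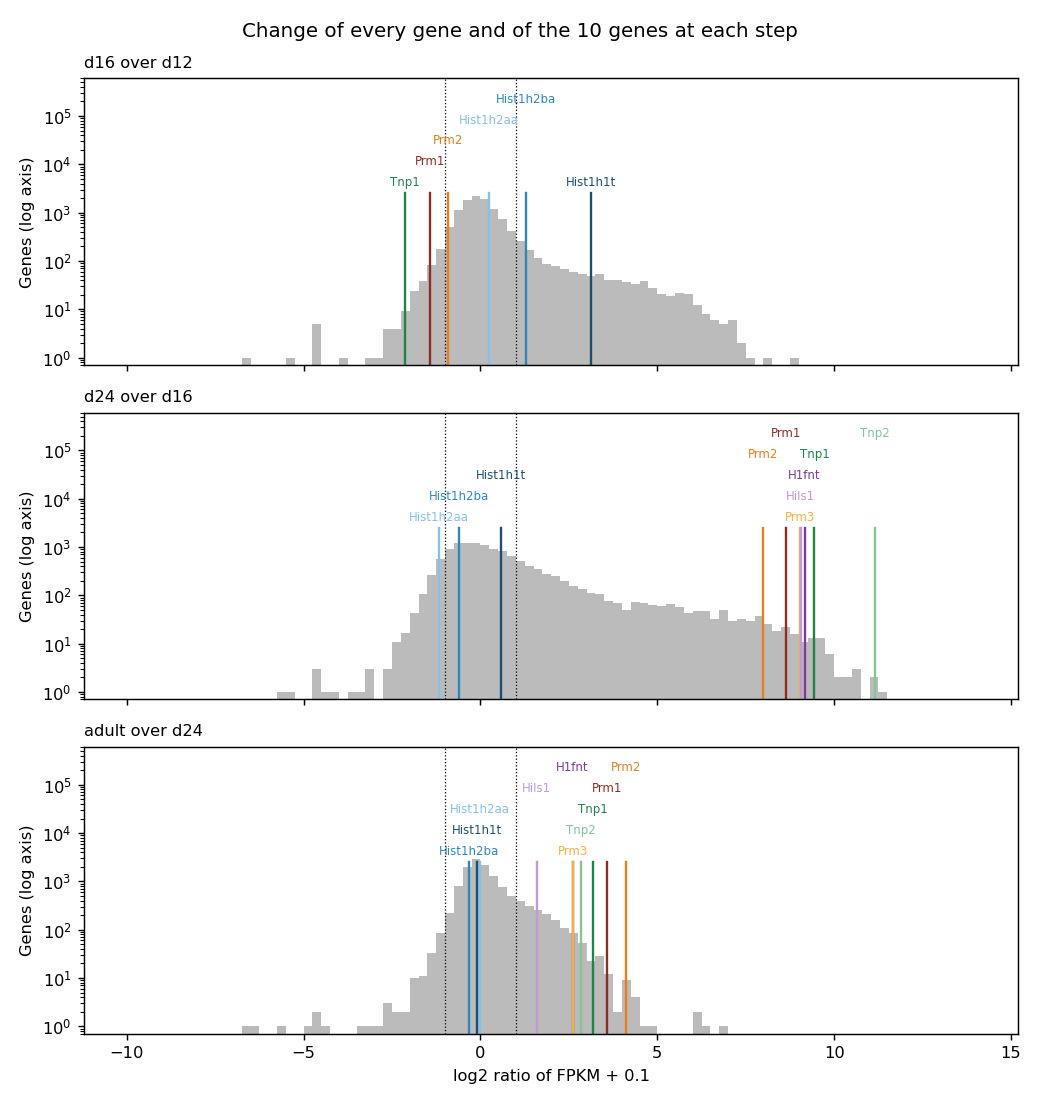
Histograms of the log2 ratio of FPKM + 0.1 at each step for all genes with at least 2 FPKM in either library (vertical log axis, number of genes), with a coloured line for each of the 10 genes that could be counted and dotted lines at the 2-fold limits. At d24 over d16 the 7 spermatid genes lie at 7.99 to 11.16, at adult over d24 they lie at 1.60 to 4.13, and Hist1h1t, Hist1h2ba and Hist1h2aa stay within 1.2 of 0 at both of these steps.

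A fixed threshold did not order the genes as the d24 share did, and that share does not measure the time of onset. The stage of first reaching 2 FPKM, the limit used in the study, was d12 for 6 of the 10 genes, beside 79.1% of the genes that reach it at all, and d24 for 4, beside 11.1%. Tnp1, Prm1 and Prm2 were among the 6 on 15, 17 and 36 fragments, and with the lower end of the counting interval required to reach 2 FPKM only Prm2 of these stayed at d12. Measured against each gene's own highest value, with 10% of it as the limit, the first stage was d12 for Hist1h2ba and Hist1h2aa and d16 for Hist1h1t. It was d24 for 5 genes (H1fnt, Hils1, Tnp1, Tnp2 and Prm3), beside 12.3% of the genes that reach 2 FPKM, and the adult for Prm1 and Prm2, beside 0.441%. With equal FPKM sums, over all genes or without the 100 highest, Prm1 moved to d24 and Prm2 alone stayed at the adult stage. Under these scalings and with equal upper quartiles Hist1h1t moved to d12.

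The small d12 signal of the spermatid genes was higher than that at d16 for 7 of 7 genes. H1fnt rested on 3 and 2 fragments at d12 and d16, and Hils1 on 1 and 0. This comparison was not planned. The 7 genes were read from the same library at each stage, so they are not replicates of a stage. Of the genes above 0 in either library 52.1% were higher at d12, and of those under 5 FPKM in both and at 100 FPKM or more in the adult 45.9%. Together they had 90 fragments at d12 and 31 at d16, a ratio of 2.90 in FPKM units (1.91 to 4.51), and 4 of the single-gene intervals lay above 1 (Tnp1, Tnp2, Prm1 and Prm2). The d12 levels were 0.0235% to 0.124% of the adult level, and those at d16 at most 0.0216%. Of the elongating spermatid markers, 5 of 6 were likewise higher at d12, with sums of 1.71 FPKM at d12 and 0.774 at d16, and none exceeded 0.673 FPKM. Of the round spermatid markers 3 of 6 were higher at d12, with sums of 5.92 FPKM at d12 and 20.98 at d16. Most of the d16 sum was Acrbp, with 2.73 FPKM at d12 and 16.1 at d16. Divided by Gapdh, a comparison added after the values were seen, 6 of the 7 genes were higher at d12, H1fnt was not, and the ratio was 1.79. Whether this trace is RNA made in the d12 testis was not tested.

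As part of the whole library, the 10 genes took 0.807%, 1.11%, 0.975% and 4.41% of the FPKM sum from d12 to adult. The makeup changed more than this total up to d24. Hist1h1t, Hist1h2ba and Hist1h2aa together took 0.802%, 1.11%, 0.447% and 0.298%. The transition proteins took 0.00161%, 0.000230%, 0.216% and 1.24%, and the protamines 0.00322%, 0.00122%, 0.274% and 2.74%. Transition protein over protamine FPKM was 0.789 at d24 and 0.451 in the adult. Since these transcripts are short, the 10 genes held a smaller share of fragments, 0.280% at d24 and 1.43% in the adult. This share was taken only over genes whose RefSeq transcripts differ at most 1.1-fold in length, not over the whole library.

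The genes with the most similar profiles were sought among 1547 genes with a highest value of at least 100 FPKM, by the distance between the 4 values as percent of the highest. Closest to Hist1h1t was Cyct, the testis cytochrome c, at 4.17 points and with 14.9, 110.6, 158.7 and 151.9 FPKM, followed by Khdrbs3, Dnah7b, 1700102P08Rik and Nol8. Closest to Tnp1 was Oaz3, the antizyme of spermatids, at 0.0322 points and with 0.673, 0.421, 125.6 and 1129 FPKM, followed by Fam71f2, Gm6760, Spem1 and Tppp2. Closest to Prm1 was Gm614 at 0.154 points and with 0.107, 0.107, 21.6 and 263.6 FPKM, followed by 1700015G11Rik, Wbscr25, Cabs1 and Ubqlnl. For comparison, Tnp1 lay 2.77 points from Prm1 and 2.97 from Tnp2, and Hist1h1t lay 70.8 points from Hist1h2ba, so the 5 genes nearest to Tnp1 and to Prm1 were closer than any of the other 9. Over only 4 libraries this likeness is a description.

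Neighbours on the chromosome were mixed. 1700027A15Rik, across the 136 bp from Tnp1, had 0.576, 0, 85.3 and 1631 FPKM. Its adult level was 19.1 times its d24 level, against 9.01 for Tnp1, and it equalled 18.5% of the Tnp1 level at d24 and 39.3% in the adult. At the other end of the scale, Socs1, a cytokine signalling inhibitor 2398 bp from Tnp2, stayed between 0.908 and 1.27 FPKM in the 4 libraries while its neighbour Tnp2 reached 3997. On chromosome 13, Hist1h4c, a replication-linked H4 gene 1538 bp from Hist1h1t, went the other way from it, with 115.8, 103.5, 43.8 and 25.1 FPKM. Hist1h2bc on its other side had 17.7, 27.5, 28.0 and 30.8 FPKM. Both thus lay well below Hist1h1t in the adult. Scgn, next to Hist1h2aa at 18542 bp, had 0.0566, 0, 1.58 and 7.15 FPKM. Col1a1 and Ppp1r9b flank Hils1, with 46.9 to 7.69 FPKM and 15.1 to 18.8 FPKM from d12 to adult, and Olfr286 next to H1fnt stayed at or below 0.155 FPKM.

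Genes that act with the 10 were read from lists. Of 14 factors of histone eviction and exchange, 2 of the 10 counted were higher from d12 to d16, 7 of 13 from d16 to d24 and 4 of 14 from d24 to adult, beside the 11.4%, 28.5% and 13.3% of all genes counted at these steps, with median log2 ratios of 0.24, 1.31 and 0.18. Over the scalings the d24 count ranged from 5 to 10. The 10 came with Gapdh as the reference, where the median log2 ratio of all genes counted was 1.32. Brdt, the testis bromodomain protein that binds acetylated histones, had 22.9, 95.2, 236.2 and 317.9 FPKM, and Phf7, a ubiquitin ligase for histones, 14.01, 181.0, 906.7 and 1181. Psme4, the proteasome activator for acetylated histones, had 29.0, 43.5, 147.3 and 220.3 FPKM. Brdt and Phf7 were thus called higher a step before the transition proteins. Hmgb4, an HMG-box protein of the testis, had the late profile instead, with 0.467, 0.117, 197.8 and 1285 FPKM, as did the kinase gene Tssk6 at a lower level, with 0.184, 0.245, 3.53 and 24.6 FPKM. Others on the list were flat or lower late and were not called at any step on the deposited scale. Parp1, a DNA break sensor, had 61.6, 60.6, 55.2 and 43.9 FPKM. The ubiquitin ligase gene Rnf8 had 25.7, 29.1, 25.1 and 17.0, and the ubiquitin ligase gene Ubr2 16.4, 13.3, 7.16 and 5.48. When rescaled, Ubr2 was called lower at d24 except with Gapdh, and Rnf8 lower in the adult with equal FPKM sums. Parp1 was called higher at d24 with Gapdh as the reference.

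Of 15 factors of transcription and storage of transition protein and protamine RNA, 8 of 12 counted were higher from d12 to d16, 10 of 14 from d16 to d24, where Taf7l was lower except with Gapdh as the reference, and 3 of 14 from d24 to adult, beside the same 11.4%, 28.5% and 13.3%. Over the scalings the first count ranged from 7 to 9 and the second from 7 to 11, and the last was 2. The 9 and the 11 came with Gapdh as the reference. There the median log2 ratio of all genes counted was 0.65 from d12 to d16 and 1.32 from d16 to d24. Crem, the cAMP-responsive activator of spermatid genes, had 5.61, 20.55, 84.0 and 130.4 FPKM, and its coactivator gene Fhl5 0.0723, 0.0724, 18.5 and 75.9. Ybx2, which binds and stores these messages, had 11.1, 143.2, 614.8 and 763.7 FPKM. Papolb, a testis poly(A) polymerase, had 2.12, 16.8, 193.4 and 308.3, and the helicase gene Ddx25 14.4, 74.6, 316.8 and 351.0. At d16, when Tnp1, Tnp2 and Prm1 were at or below 1.20 FPKM, Ybx2 and Ddx25 thus already stood well above their d12 levels. Tbpl2, an oocyte factor on the list, was listed at 0 in all 4 libraries.

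Of the 8 other linker histones, 7 could be counted. From d12 to d16, 0 were higher and 0 lower, beside 11.4% and 3.00% of all genes. From d16 to d24, 1 was higher and 4 were lower, beside 28.5% and 8.12%. From d24 to adult, 0 were higher and 1 lower, beside 13.3% and 1.27%. Divided by Gapdh, none of the 7 was called lower at d24, and with equal FPKM sums 6 were. At this step the median log2 ratio of all genes counted was 1.32 with Gapdh and -0.44 with equal sums. The 3 scalings other than Gapdh called 2 of them lower at d16. In the adult 4 were lower with equal FPKM sums and 3 when the 100 highest genes were left out. Shares of all genes were not computed for the rescaled counts. Hist1h1a had 925.3, 650.7, 266.4 and 186.5 FPKM and Hist1h1c 520.0, 412.1, 146.0 and 134.7. Of 11 symbols listed for other testis-enriched core histone variants, 5 were found in the table, and 3 reached 2 FPKM. Symbols were matched as written, so a variant held under another name would count as not found. H2afb1, a short H2A variant, had 0.152, 0, 13.005 and 81.0 FPKM, and 1700024P04Rik 0, 0, 14.7 and 112.4, so both had a late profile like that of H1fnt. H2bfm had 6.32, 6.56, 2.30 and 3.31 FPKM.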

How the data were processed

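Total RNA of whole testis was converted to strand-specific libraries with ScriptSeq v2 and sequenced as read pairs. The authors aligned them using TopHat2 2.1.0 (Bowtie 1.1.2) on GRCm38/mm10, with at most 1 alignment reported for each pair. The deposited FPKM per RefSeq gene are Cuffdiff output (Cufflinks 2.2.1), corrected for multi-reads and for bias. Its correction for effective transcript length was switched off. What this does to ratios and ranks between genes of unlike length was not tested, and the counting intervals do not cover it. How Cuffdiff scaled the libraries is not given in the sources used here.

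The value of 1 fragment was recovered in each library from 15396 genes with 1 RefSeq transcript, where 91.7% to 92.5% of low values were whole multiples within 0.05. The recovery step was tested on simulated data (4 of 4 libraries within 1 percent). These were whole counts turned into FPKM with the same lengths, so they cannot test the effect of the bias and multi-read corrections. Prm2 had 35.6 fragments at d12 and 18.3 at d16 before rounding, which are not whole within 0.05. Depth was 9299915, 9886470, 24901846 and 12708774 fragments. Poisson and Clopper-Pearson 95% intervals were computed with scipy 1.17.1. Genes were eligible to be named by rule (all 10 genes, list genes with at least 2 FPKM, the 5 nearest profiles and chromosomal neighbours). The examples from the lists, Tbpl2, which is below that limit, and Hist1h2bj were chosen after their values were seen. Alternatives were 4 scalings, other thresholds and pseudocounts. All value columns were used. The genes and lists were chosen with earlier results of these data known. Upstream sequences came from RefSeq, GRCm38.p6 (10 of 10 genes matched). Protein sequences were not used here.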

Additional observations from a re-analysis of the deposited data

How the results depend on the processing

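Of 109 recomputed values for 26 results, 49 stayed within the limits set, 60 moved and 0 reversed. The limit was a fold for counts of genes and the counting interval for other values. A reversal was scored only for the adult over d24 ratios of the 7 spermatid genes, which stayed at or above 2.17 (Hils1). The d24 over d16 ratios of Hist1h1t and Hist1h2ba, which did change direction, were not among the 26 results, so the 0 does not cover them. That of Hist1h2ba changed direction only with Gapdh as the reference. The count of genes higher from d12 to d16 was 1 with a fold of at least 4. The count first reaching the threshold was, at d12 and d24, 3 and 7 with 5 FPKM, 2 at d24 with 1 FPKM, and 2 at d12 with 10 percent of the highest value. After seeing the data, the same count was taken with the d12 library left out (6 genes at d24, 4 at d16) and with the lower interval end (4 at d12, 6 at d24). Also after seeing the data, the count first at 10 percent of the highest value in the adult was taken under each scaling, and it was 1 with equal FPKM sums, over all genes or without the 100 highest.

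The class medians of the d24 share for testis histones, transition proteins and protamines were 141.1%, 17.6% and 11.6% with the same FPKM sum, 119.5%, 14.9% and 9.84% with the same upper quartile, 106.1%, 13.2% and 8.74% divided by Gapdh, and 134.0%, 16.7% and 11.04% with the same sum without the 100 highest genes. The scaling itself moves all genes of a library by 1 factor, and the order of the 10 genes was the same under each. These scalings shifted the median gene by -0.12, -0.13, 0.68 and -0.16 on the log2 scale from d12 to d16, by -0.61, -0.28, 1.15 and -0.65 from d16 to d24, and by -0.47, -0.24, -0.07 and -0.40 from d24 to adult. The share of the library was 0.988% at d24 and 4.44% in the adult without small and ribosomal noncoding genes. It was 0.280% and 1.43% of the fragments on genes whose RefSeq transcripts differ at most 1.1-fold in length. No paired analysis was possible because each stage has 1 library and no result comes from a test, so leaving out a replicate was not possible either. Fragment numbers limit the d16 values of the 7 spermatid genes, which rest on 0 to 18 fragments.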
